A study of Ovis aries with 15 samples.

Results

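Transcript levels of 9 genes of the gp130, JAK and STAT3 route were measured in the mammary gland of Romney ewes: the ligand gene LIF, the receptor genes IL6ST, LIFR and OSMR, the kinase gene JAK1, STAT3 itself, the feedback inhibitor gene SOCS3, and the transcription factor genes CEBPB and CEBPD. They were taken by symbol, so 9 of the 24691 features of the deposited table were members, and each symbol had 1 row. Of these, 8 passed the filter on low read numbers that left 13345 features for testing, and LIF did not.

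Cytokines of this family bind receptor pairs that contain gp130, the protein of IL6ST, and the paired receptor bears on which ligands are heard. For example, the LIF receptor with gp130 binds leukaemia inhibitory factor, and the oncostatin M receptor with gp130 binds oncostatin M. Kinases of the JAK family held on the receptors then phosphorylate STAT3, which enters the nucleus, and SOCS3 is one of the genes it switches on to shut the receptor off again. In rodents LIF made by the epithelium activates STAT3 at weaning, and STAT3 with the C/EBP factors drives the first phase of involution, the death and remodelling of the milk-secreting tissue. Activation of STAT3 is a phosphorylation, which RNA levels do not measure, and no involuting gland was sampled.

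The ewes were biopsied by needle, first at day 135 of gestation (late pregnancy) and again at day 15 post partum (lactation), and RNA of several ewes was pooled for each library, giving 9 late pregnancy and 6 lactation libraries. All were primiparous and grazed on the same allowance, and they differed in the feed of their own dams in early gestation, which was ad libitum (HM), maintenance (MM) or sub-maintenance (LM), followed by maintenance feed in every case. Each dam group had 3 late pregnancy and 2 lactation pools. The series' design text gives 3 ewes per late pregnancy pool and 2 per lactation pool, whereas the study's methods give 3 throughout. The same ewes were sampled at both times, but nothing ties a pool of one state to a pool of the other, and p-values rest on the spread between pools.

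Between 6471237 and 16898986 reads fell on exons in a late pregnancy library, and between 9014506 and 24001031 in a lactation library. The 7 milk protein genes looked for took 13.7 to 23.4% of them before birth and 71.3 to 75.8% afterwards, so the reads left for every other gene fell, and the scaling between states decides the direction of small changes. The main values are CPM, counts per 1e6 reads after TMM scaling, which sets the bulk of genes level between libraries; the median log2 change of all tested genes was then -0.03. All 8 luminal epithelial marker genes looked for (among them KRT8, EPCAM and ELF5) passed the read filter. Of these, 4 were called higher and KRT7 lower (-1.12), while KRT8, CDH1 and CLDN3 were not called. The call of KRT18 (0.43, edgeR adjusted p = 0.046) was lost in several fits that left out 1 library. The summed CPM of all 8 went from 1707 to 2116 (late pregnancy) up to 2485 to 2739 (lactation). Most of this sum was held by ELF5 (mean 629 and 1100 CPM) and KRT19 (622 and 947). The summed CPM of T cell markers was 43.4 to 70.3 in late pregnancy and 14.1 to 21 in lactation, that of macrophage markers 142 to 191 and 70.5 to 101, and that of endothelial markers 156 to 209 and 91.9 to 132, each without overlap between the states. That of neutrophil markers was 7.56 to 11.5 and 2.46 to 5.52, but FCGR3A held most of it (mean 8.05 and 2.6 CPM). CSF3R was not called (edgeR adjusted p = 0.28), and CXCR2, S100A8 and S100A12 did not pass the read filter. The part of these shifts in the results below was not tested. In such bulk tissue, fewer cells of a type and less RNA per cell cannot be told apart. One lactation library, HM pool 1, stood apart with 12.9% of its gene reads on introns against 5.74 to 6.54% in the other 5, and values without it are given where they matter.

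Lactation was compared with late pregnancy over all tested genes by edgeR's quasi-likelihood test, and a gene was called at a Benjamini-Hochberg adjusted p under 0.05. Of the 8 tested genes, 5 were called higher in lactation (LIFR, SOCS3, JAK1, OSMR and CEBPD), none was called lower, and STAT3, IL6ST and CEBPB were not called. Over all tested genes 68.4% were called, 33.1% higher and 35.2% lower, so a call alone was common. Of the 8, 3 were called and more than 2-fold higher, against 9.13% of all tested genes. In 2 of them, LIFR and JAK1, every lactation library lay above every late pregnancy library, which held for 20.2% of all tested genes, and in none did every lactation library lie below, which held for 20.0%. The median log2 change of the 8 genes was 0.37.

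**Figure D1:**
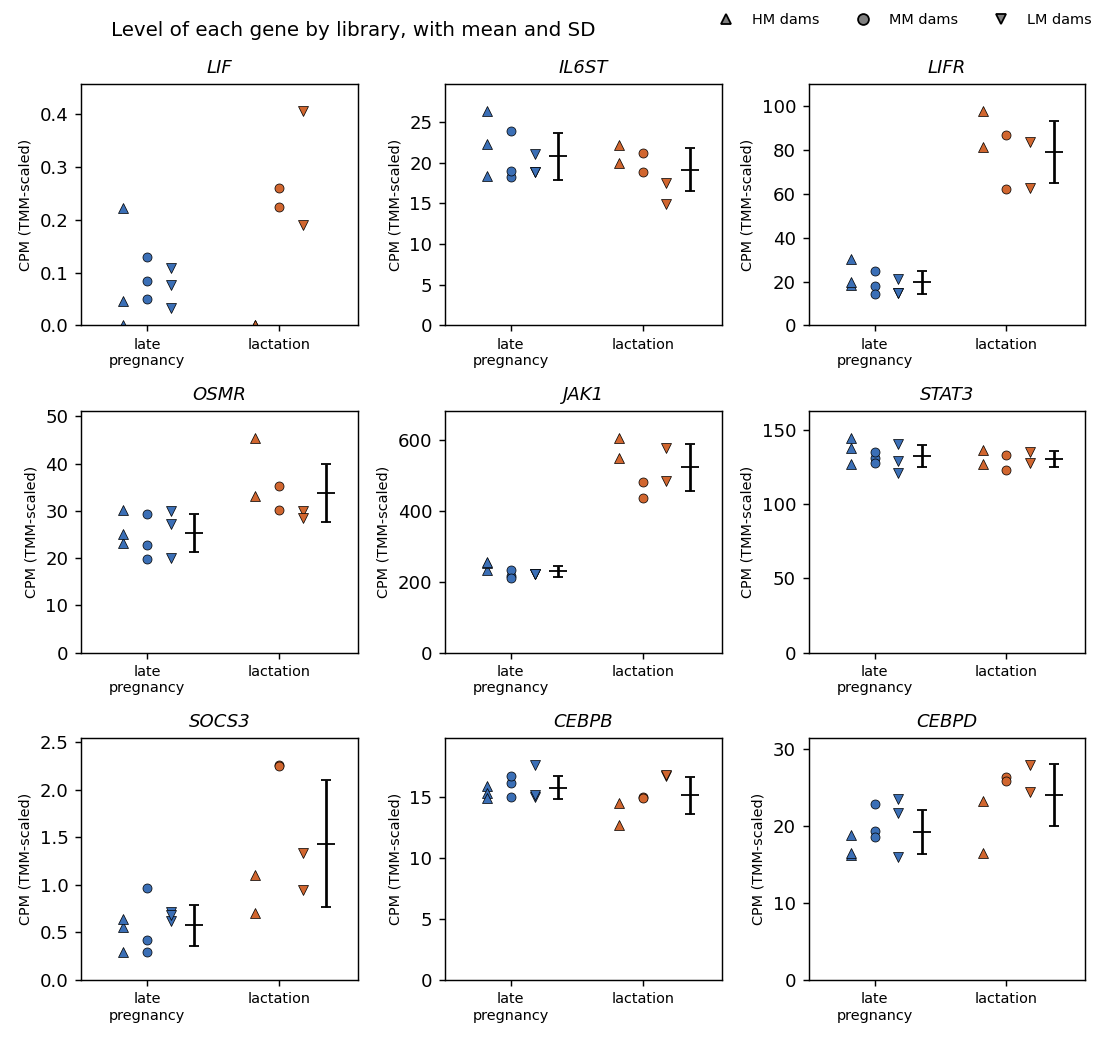
Level of each of the 9 genes in CPM on a linear axis from 0, with 1 symbol per library, shaped by dam group (HM, MM, LM), and the mean and SD of each state beside them except for LIF. The lactation libraries of LIFR (62.2 to 98.1 CPM) and JAK1 (436 to 607) sit above all late pregnancy libraries, those of STAT3 (123 to 137) lie within the late pregnancy range, and LIF is near 0 throughout.

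The ligand LIF was barely detected in either state. LIF (chromosome 17, 68801211 to 68805585, 3 exons) had 0 to 3 reads on exons in each late pregnancy library, 15 in all, and 0 to 3 in each lactation library, 9 in all. Both states were thus at or under the 3 reads that a count of 0 allows, and a difference was not detectable at this depth. Of the related ligand genes, IL6 had at most 2 reads in any library and OSM, which encodes oncostatin M, at most 1. CLCF1 had at most 9 and IL27 at most 8, and CTF1, with up to 47, was the one that passed the read filter.

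Among the receptors, LIFR rose most. LIFR (chromosome 16, 35815320 to 35863968, 19 exons), which encodes the chain of the LIF receptor that pairs with gp130, had 14.2, 18.3 and 30.4 CPM (lowest, median and highest) in late pregnancy and 62.2, 82.6 and 98.1 CPM in lactation. All 6 lactation libraries lay above all 9 of late pregnancy. The log2 change was 2.02 ± 0.14 (SE), a 4.06-fold higher level (edgeR adjusted p = 1.8e-10), and its place among all tested genes was at percentile 96.8.

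The shared receptor gene IL6ST was not called. IL6ST (chromosome 16, 23243722 to 23309376, 15 exons) had 18.2, 19 and 26.4 CPM in late pregnancy and 14.9, 19.4 and 22.2 CPM in lactation. The states overlapped, although the 2 LM libraries of lactation were below every late pregnancy library. The log2 change was -0.12 ± 0.10 with a 95% interval from -0.32 to 0.09 (edgeR adjusted p = 0.30); it was called lower at -0.27 under upper quartile scaling, where the median of all genes was -0.18, and was 0.03 when reads on the whole gene were counted.

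OSMR rose less and less evenly. OSMR (chromosome 16, 35424733 to 35490340, 20 exons), the receptor chain that pairs with gp130 for oncostatin M, had 19.9, 25.1 and 30.2 CPM in late pregnancy and 28.6, 31.7 and 45.5 CPM in lactation, with 3 of the 6 lactation libraries above all of late pregnancy. The log2 change was 0.41 ± 0.11 (edgeR adjusted p = 0.0032), and 0.32 without HM pool 1, its highest library (edgeR adjusted p = 0.012). By the lane in the column names, the change was 0.74 among the 4 late pregnancy and 3 lactation libraries of lane 7 (edgeR adjusted p = 0.00039) and 0.12 among the 5 and 3 libraries of lane 8 (edgeR adjusted p = 0.46). Every LM library was in lane 8, and the labels state that reads of 2 lanes were combined for each library. Under upper quartile scaling the change of 0.26 was not called (edgeR adjusted p = 0.052).

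OSMR and LIFR lie on the same chromosome with 324979 bases between them, and they were about even in late pregnancy, with LIFR in excess in lactation. Reads per kilobase of exon allow a comparison within a library that no scaling between libraries can alter. In late pregnancy OSMR had 0.653 to 1.64 times the level of LIFR per kilobase, and in lactation 0.268 to 0.441 times, so the states did not overlap. LIFR relative to IL6ST was at 0.621 to 0.96 in late pregnancy and 2.44 to 4.1 in lactation, again with no overlap. OSMR relative to IL6ST was 0.626 to 1.04 and 0.935 to 1.35, and 5 of 6 lactation libraries exceeded all of late pregnancy. These ratios were read as descriptions and not tested.

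**Figure D2:**
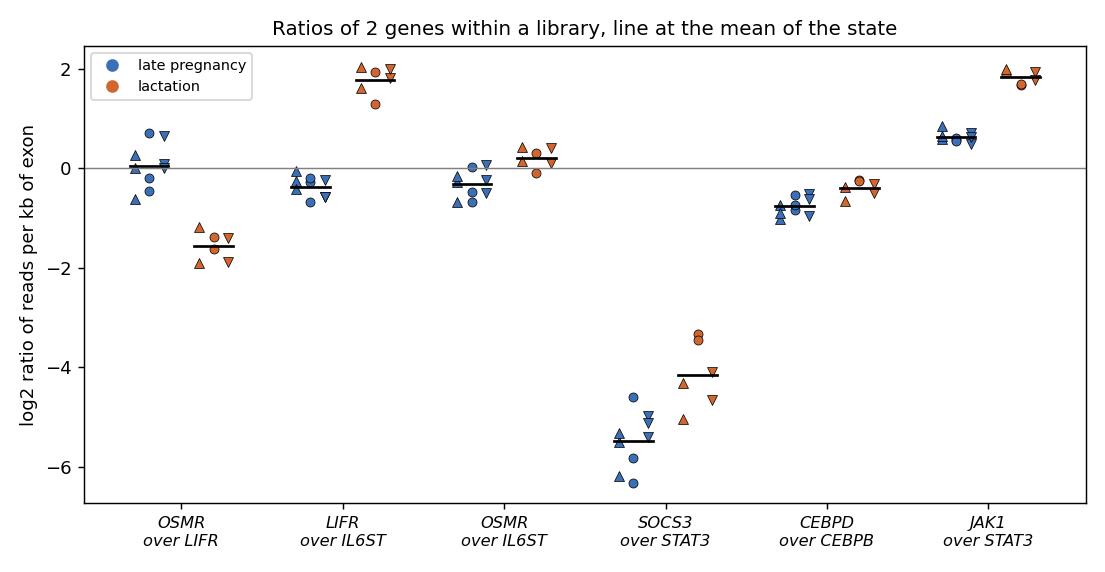
Log2 ratio of reads per kilobase of exon (vertical axis) for 6 pairs of genes, 1 symbol per library, blue for late pregnancy and orange for lactation, shaped by dam group as in the plot of levels, with a line at each state's mean. OSMR over LIFR moves from a mean of 0.05 to -1.57, LIFR over IL6ST from -0.37 to 1.78, and JAK1 over STAT3 from 0.62 to 1.83, each without overlap.

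Below the receptors, the kinase gene rose, and STAT3 did not pass the test. JAK1 (chromosome 1, 40022436 to 40079205, 24 exons), a kinase bound to gp130 and to many other cytokine receptors, had 210, 222 and 255 CPM in late pregnancy and 436, 517 and 607 CPM in lactation. No lactation library came near the late pregnancy range, and the log2 change was 1.19 ± 0.07, a 2.28-fold higher level (edgeR adjusted p = 8.2e-12). It was 1.18 within lane 7 and 1.19 within lane 8.

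STAT3 (chromosome 11, 41902741 to 41976461, 25 exons) had 121, 131 and 145 CPM in late pregnancy and 123, 130 and 137 CPM in lactation, so all 6 lactation libraries lay inside the late pregnancy range. The log2 change was -0.02 ± 0.05, with a 95% interval from -0.13 to 0.08 (edgeR adjusted p = 0.67). Its spread was small as well, with an SD of 7.65 CPM around a mean of 133 in late pregnancy and 5.56 around 131 in lactation. Under upper quartile scaling STAT3 was called lower at -0.17, close to the all-gene median of -0.18 there, and within lane 8 it was 0.03. Some other settings called STAT3 lower beyond the all-gene median. By limma on the deposited quantile-normalized RPKM plus 1 it was -0.22 (limma adjusted p = 7.8e-05, all-gene median -0.0466). With 10 reads required in every library it was -0.11 (edgeR adjusted p = 0.048, all-gene median -0.0136). In the deposited RPKM, which are scaled by total reads and so hold the dilution by milk protein genes, STAT3 went from 44.3 ± 2.58 (SD, n = 9) to 12.6 ± 0.28 (SD, n = 6). JAK1 relative to STAT3, which needs no scaling, was 1.4 to 1.8 per kilobase in late pregnancy and 3.17 to 3.95 in lactation.

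SOCS3, the feedback inhibitor and target of STAT3, rose from a very low level. SOCS3 (chromosome 11, 52828396 to 52829221, 1 exon) had only 4 to 21 reads in late pregnancy libraries and 4 to 26 in lactation libraries, that is 0.296, 0.615 and 0.97 CPM against 0.703, 1.22 and 2.26 CPM. In lactation 4 of 6 libraries lay above all of late pregnancy, and the 2 MM libraries were the highest at 2.25 and 2.26 CPM. The log2 change was 1.40 ± 0.29 with an interval from 0.78 to 2.01 (edgeR adjusted p = 0.00031), and the gene was not tested when 10 reads were required in every library. Relative to STAT3, SOCS3 was at 0.0125 to 0.041 per kilobase in late pregnancy libraries and at 0.0302 to 0.0986 in those of lactation. The gene model is a single exon of 826 bp, and transcript outside it was not counted.

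The C/EBP genes encode transcription factors that act with STAT3 in involution, and CEBPB also has a role in the growth of the pregnant gland. CEBPB (chromosome 13, 77755609 to 77756003, 1 exon of 395 bp) had 14.9, 15.3 and 17.6 CPM in late pregnancy and 12.7, 14.9 and 16.8 CPM in lactation. The states overlapped, the log2 change was -0.06 ± 0.07 (edgeR adjusted p = 0.44), and within lane 8 it was 0.05. It was called lower at -0.21 under upper quartile scaling (all-gene median -0.18). By limma on the deposited quantile-normalized RPKM plus 1, CEBPB was called lower at -0.31, beyond the all-gene median of -0.0466 (limma adjusted p = 6.1e-05).

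CEBPD (chromosome 9, 31967182 to 31968359, 2 exons), itself a known STAT3 target, had 16, 18.9 and 23.5 CPM in late pregnancy and 16.5, 25.2 and 28 CPM in lactation. In lactation 4 of 6 libraries were above all of late pregnancy, whereas HM pool 2, at 16.5 CPM, was low among them. The log2 change was 0.32 ± 0.11 (edgeR adjusted p = 0.014). It was 0.20 within lane 7 (edgeR adjusted p = 0.31) and 0.43 within lane 8 (edgeR adjusted p = 0.015), and the call was lost under upper quartile scaling at 0.17 (edgeR adjusted p = 0.16). CEBPD relative to CEBPB was 0.493 to 0.694 per kilobase in late pregnancy and 0.629 to 0.849 in lactation, with 5 of 6 lactation libraries above all of late pregnancy.

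**Figure D3:**
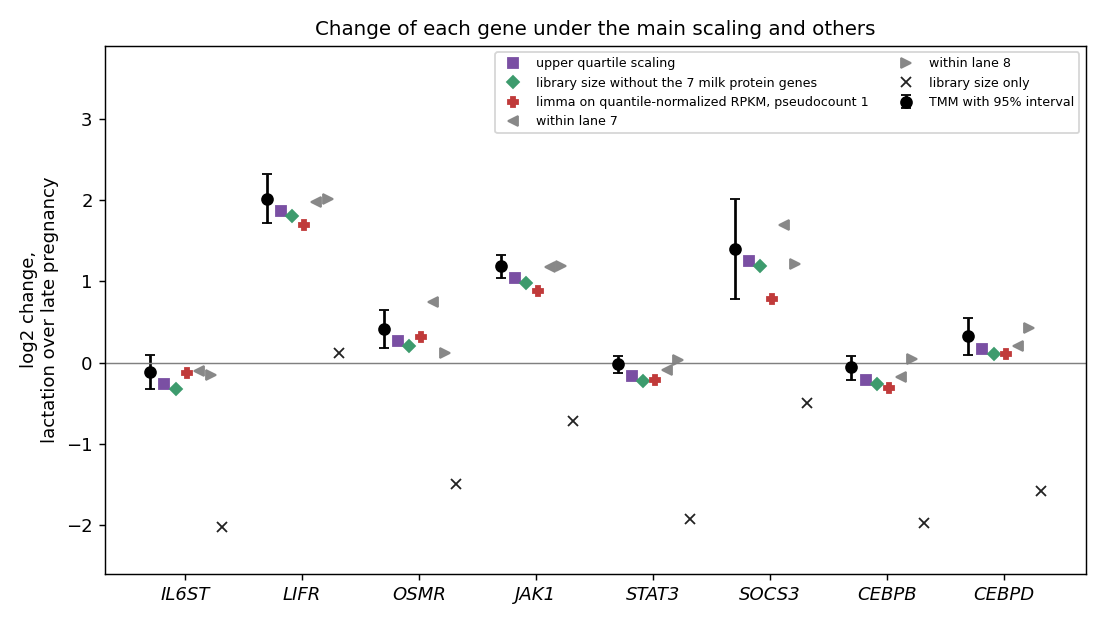
Log2 change from late pregnancy to lactation (vertical axis) for the 8 tested genes. Black circles with 95% intervals are the TMM-scaled edgeR fit, coloured marks are other scalings or tests, grey triangles are the libraries of 1 lane alone, and crosses use library size only, which moves the median of all genes to -1.94. LIFR and JAK1 stay well above 0 under all but the last, where LIFR is at 0.12 and JAK1 at -0.72.

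Ordered by CPM per kilobase of exon, JAK1 led in both states, at 47.3 ± 3.27 (SD, n = 9) in late pregnancy and 108 ± 13.5 (SD, n = 6) in lactation. CEBPB, at 39.8 and 38.2, and STAT3, at 30.6 and 30.1, followed it in both states. In late pregnancy the order went on with CEBPD at 23.6, IL6ST at 6.35, OSMR at 5.1 and LIFR at 5.02, and the ranges of these last 3 overlapped. In lactation CEBPD at 29.4 overlapped with STAT3, and LIFR at 20.2 stood above OSMR at 6.81 and IL6ST at 5.84, which overlapped each other. SOCS3, at 0.697 and 1.74, and LIF, at 0.0456 and 0.0991, were last. The short gene models of CEBPB, SOCS3 and CEBPD (819 bp) bear on their place in this order and on the level of CEBPD relative to CEBPB. Although the CEBPD model has 2 exons, 0 of its 4763 exon reads spanned a junction.

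Reads on introns, which can come from unspliced transcript, gave a second readout for the 5 genes that had enough of them: STAT3, IL6ST, LIFR, OSMR and JAK1. LIF had at most 1 intron read in a library, and SOCS3, CEBPB and CEBPD had none. These reads were scaled on their own and tested in the same way over 10344 genes, of which 29.0% were called higher and 29.0% lower. Of the 5, 4 were called higher (LIFR, JAK1, STAT3 and IL6ST) and none lower.

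STAT3, not called in exon reads, rose in intron reads: 72.3 to 98.6 intron CPM in late pregnancy against 92.6 to 131 in lactation, with a log2 change of 0.41 ± 0.10 (edgeR adjusted p = 0.00097). IL6ST had 50 to 76.3 intron CPM in late pregnancy and 72.9 to 110 in lactation, a log2 change of 0.31 ± 0.11 (edgeR adjusted p = 0.018), and was not called at 0.24 without LM lactation pool 2 (edgeR adjusted p = 0.065). LIFR rose in introns by 1.35 ± 0.17 (edgeR adjusted p = 3.3e-07), and its range went from 13.4 to 34.6 up to 47.4 to 91.1 intron CPM, without overlap. JAK1 rose there by 1.06 ± 0.11 (edgeR adjusted p = 6.8e-09), with 81.3 to 121 intron CPM in late pregnancy and 164 to 245 in lactation. OSMR, which rose in exon reads, was at -0.02 ± 0.16 in introns (edgeR adjusted p = 0.93), and at 0.06 with the scaling factors of the exon reads.

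Whether exon and intron reads changed by different amounts was tested directly with limma on the log2 ratio of exon to intron CPM in each library, over 9801 genes, of which 36.6% were called, with a median difference of 0.06. Of the 5 genes, 4 were called. The exon change was smaller than the intron change for STAT3, by -0.42 (95% interval -0.623 to -0.212, limma adjusted p = 0.003), and for IL6ST, by -0.44 (-0.742 to -0.133, limma adjusted p = 0.025). It was larger for LIFR, by 0.64 (0.316 to 0.967, limma adjusted p = 0.0037), and for OSMR, by 0.40 (0.0839 to 0.706, limma adjusted p = 0.045). For JAK1 the difference of 0.13 was not called (-0.0654 to 0.328, limma adjusted p = 0.28). Without HM lactation pool 1, whose intron share stood apart, OSMR was no longer called (0.37, limma adjusted p = 0.077), and the calls of STAT3 (-0.38), IL6ST (-0.49) and LIFR (0.74) held. The share of gene reads on introns was 13.8 to 15.3% in late pregnancy and 5.74 to 12.9% in lactation, and its part in these differences was not tested.

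**Figure D4:**
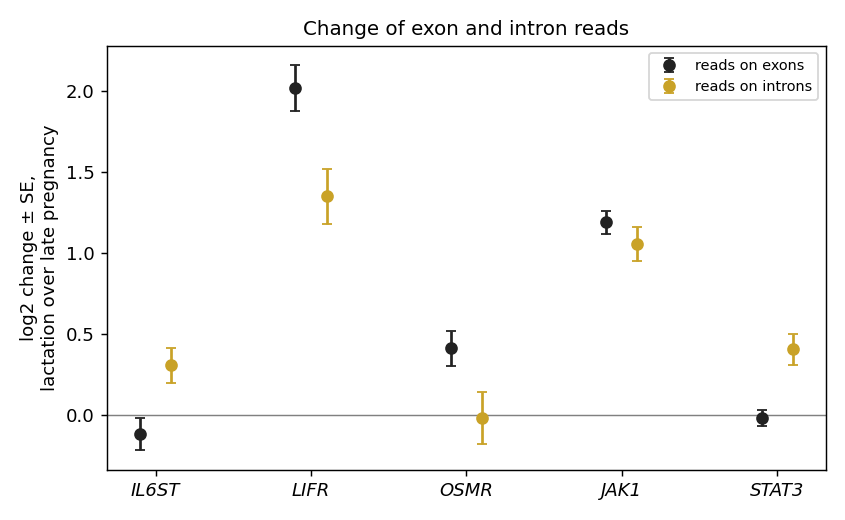
Log2 change from late pregnancy to lactation with its SE (vertical axis) for reads on exons (black) and on introns (yellow) of the 5 genes with enough intron reads. STAT3 and IL6ST sit higher in introns (0.41 and 0.31) than in exons (-0.02 and -0.12), and LIFR and OSMR sit higher in exons (2.02 and 0.41) than in introns (1.35 and -0.02).

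None of the 8 tested genes passed a test for the feed of the ewes' dams. Among the 9 late pregnancy libraries, an edgeR F-test over 3 dam groups called 0 of 13747 genes (0%) and none of the 8, with 571 genes at an unadjusted p under 0.05 (DESeq2 called 20, none of them among the 8). JAK1 had the lowest unadjusted p of the 8 in edgeR, 0.0706 (adjusted p = 1), with means of 247 CPM in HM, 220 in MM and 221 in LM pools. The change between the states did not pass the test for a difference between dam groups either: 0 of 14073 genes (0%) passed the edgeR interaction test, with 913 at an unadjusted p under 0.05 (DESeq2 called 21, none of them among the 8). The lowest interaction p of the 8 was that of SOCS3, 0.0912 (edgeR adjusted p = 0.798), whose lactation means were 2.26 CPM in MM, 1.14 in LM and 0.901 in HM pools, with 2 pools each. With 2 lactation pools per group, these tests leave wide room for differences that were not detectable.

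Within a state, the 8 tested genes were compared in pairs over the libraries, which gave 56 relations of log2(CPM + 1) with exact permutation p-values. After adjustment over the 56, none passed 0.05, and 6 had an unadjusted p under 0.05 for Pearson's r. The strongest in late pregnancy was IL6ST with LIFR, at r = 0.90 and rho = 0.67 (n = 9, exact permutation adjusted p = 0.07 and 0.48), and r was 0.62 without the 2 libraries farthest from the median of IL6ST. In lactation JAK1 and SOCS3 ran opposite, at r = -0.92 and rho = -1 (n = 6, exact permutation adjusted p = 0.19 and 0.16), with r = -0.81 without the 2 farthest. SOCS3 had only 4 to 26 reads there, with the MM pools highest at 26 and 20, where JAK1 was at 436 and 483 CPM. These low SOCS3 reads limit this relation and the likenesses to SOCS3 below. Over the 15 libraries centred within each state, the genes most like STAT3 among 12266 were GPR116 (r = 0.87), TSPYL2 (r = 0.85), LOC101102298 (r = 0.81), UBE2J1 (r = 0.80) and FXR2 (r = 0.80). Those most like SOCS3 were KIAA0556 (r = 0.91), ARHGEF17 (r = 0.87), IL33 (r = 0.83), ARHGEF3 (r = 0.82) and PKD1L3 (r = 0.82). These likenesses were picked as the highest of many over libraries that share their depth and tissue make-up, so no p is given.

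The other genes of the route were taken from 8 lists. These held ligands, receptors, kinases and STATs, inhibitors, C/EBP factors, STAT3 targets with transcription factors of involution, involution effectors, and acute phase genes. Apart from the 9 genes above, 77 were tested, of which 34 were called higher, 26 lower and 17 not called, with a median log2 change of 0.02 beside -0.03 for all tested genes. That is 44.2% higher and 33.8% lower, beside 33.1% and 35.2% of all tested genes. The counts of each list below are to be read beside the same 33.1% and 35.2%. All lists were chosen with earlier results of these data known. Every lactation library lay above late pregnancy in 22 of them (28.6%, beside 20.2%) and below in 15 (19.5%, beside 20.0%).

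Of the other receptor genes, IL6R, the interleukin 6 binding partner of gp130, was higher in lactation by 1.53 ± 0.10 (edgeR adjusted p = 9e-11), and IL11RA was called lower by a small margin (-0.16 ± 0.06, edgeR adjusted p = 0.038), a call lost in 10 of the 15 fits that left out 1 library. CTF1, which encodes cardiotrophin 1, was the only other ligand gene with enough reads to test, and it fell by 2.53 ± 0.53 on the log2 scale (edgeR adjusted p = 3e-04) to a mean of 0.136 CPM, with at most 4 reads in a lactation library. Without MM lactation pool 2 the change was -3.36.

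Of the other kinase and STAT genes, 3 of 7 were called higher, and STAT2 was not called at 0.13. JAK2, the kinase of the prolactin receptor, rose by 0.99 ± 0.10, TYK2 by 0.54 ± 0.05 and STAT6 by 0.50 ± 0.06. STAT4 (-2.0 ± 0.19) and JAK3 (-1.54 ± 0.18) fell. JAK3 and STAT4 are mainly known from lymphocytes, and all 6 T cell markers looked for were called lower too, with a median of -1.62. Their part in the change of JAK3 and STAT4 was not tested.

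Among 15 other inhibitor genes, 7 were called higher, 3 lower and 5 not called. The calls higher ranged from 5 to 7 over the fits without 1 library, and DESeq2 called 5 higher. PIAS2 (0.19, edgeR adjusted p = 0.049) and PTPN6 (0.19, edgeR adjusted p = 0.048) lay at the threshold. CISH rose most (1.74 ± 0.08, edgeR adjusted p = 9.3e-14), followed by SOCS6 (1.12 ± 0.13) and PTPN1 (0.69 ± 0.10), a phosphatase of JAK kinases. PTPRC, which encodes the leukocyte phosphatase CD45, fell by 1.37 ± 0.09 on the log2 scale, and SOCS5 (-0.42 ± 0.08) and PIAS3 (-0.28 ± 0.07), an inhibitor of STAT3, were lower by less. SOCS1, singled out after its values were seen, did not pass the read filter, with at most 10 reads in a late pregnancy library and 22 in a lactation library. Its CPM were 0.167 to 0.548 (mean 0.313) in late pregnancy and 0.659 to 2.98 (mean 1.68) in lactation. The narrow gap between the states rests on few reads, and 20.2% of all tested genes lay higher in lactation without overlap. Of the other C/EBP genes, CEBPG (0.75 ± 0.15) and DDIT3 (0.73 ± 0.17) were called higher and CEBPA (-0.94 ± 0.08) and CEBPZ (-0.28 ± 0.05) lower.

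Of the STAT3 targets and transcription factors of involution, 12 of 17 were called higher, 2 lower and 3 not, with a median of 1.14. Over all tested genes 33.1% were called higher and 35.2% lower, but the list was chosen with earlier results of these data known. ATF3, a stress-induced factor, went from a mean of 4.05 CPM in late pregnancy to 187 in lactation (5.50 ± 0.15, edgeR adjusted p = 2.1e-16). PIM1, a survival kinase that STAT3 and STAT5 both induce, went from 2.84 to 51.2 CPM (4.17 ± 0.14), and EGR1, an immediate early factor, from 4.92 to 65.9 CPM (3.75 ± 0.16). IRF1 (-2.41 ± 0.13) and MYC (-1.80 ± 0.08) fell, and BCL3, which STAT3 induces in involution, was not called at 0.16. ATF3 and EGR1, like FOS of the same list (2.55 ± 0.32), answer to many stimuli besides STAT3.

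Of the effectors of involution, 5 of 21 were called higher, 9 lower and 7 not called, with a median of -0.15. TNFRSF12A (1.10 ± 0.18), FAS (0.66 ± 0.13) and MMP11 (0.55 ± 0.21) led those that were higher, MMP11 with a call lost at 0.49 to 0.52 when LM pool 1, MM pool 1 or MM pool 2 of lactation was left out. The cathepsin genes CTSS (-1.84 ± 0.11) and CTSB (-0.86 ± 0.11) were lower. FASLG was also called lower, with up to 30 reads in a late pregnancy library and at most 2 in a lactation library. IGFBP5 (-0.08) and PIK3R1 (0.02), through which STAT3 blocks survival signals in the involuting mouse gland, were not called. Reads were counted per gene, so separate transcripts of PIK3R1 were not told apart. CTSS is strongly expressed by macrophages, whose markers C1QA, C1QB and C1QC were among 4 of 6 called lower, and the part of these cells was not tested.

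Acute phase and inflammation genes moved both ways, with 4 of 10 called higher, 5 lower and CCL2 not called at -0.23. The calls higher were 3 without HM lactation pool 1, and the calls lower ranged from 3 to 6 over the fits without 1 library. LCN2, an iron-sequestering defence protein, went from a mean of 24.8 to 285 CPM (3.52 ± 0.15, edgeR adjusted p = 4.6e-14). CD14 (2.13 ± 0.13) and LBP (1.86 ± 0.20) were higher as well. The call of HP, which encodes haptoglobin, rested on HM lactation pool 1: that library had 186 CPM, the other 5 lactation libraries 2.64 to 12.8 and the late pregnancy libraries 2.12 to 19.4. Its log2 change was 2.53 ± 0.76 with that library and 0.26 without it (edgeR adjusted p = 0.66), and 3.15 without LM late pregnancy pool 2. HP was not called by limma, in the fit with the replicate block or within lane 8, and DESeq2 gave it no adjusted p. CHI3L1 (-1.90 ± 0.27), TNF (-1.21 ± 0.31) and A2M (-1.20 ± 0.12) led those that fell. Among the neutrophil markers, S100A8 and S100A12 had at most 13 reads in any library, and FCGR3A was called lower (-1.63 ± 0.16).

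**Figure D5:**
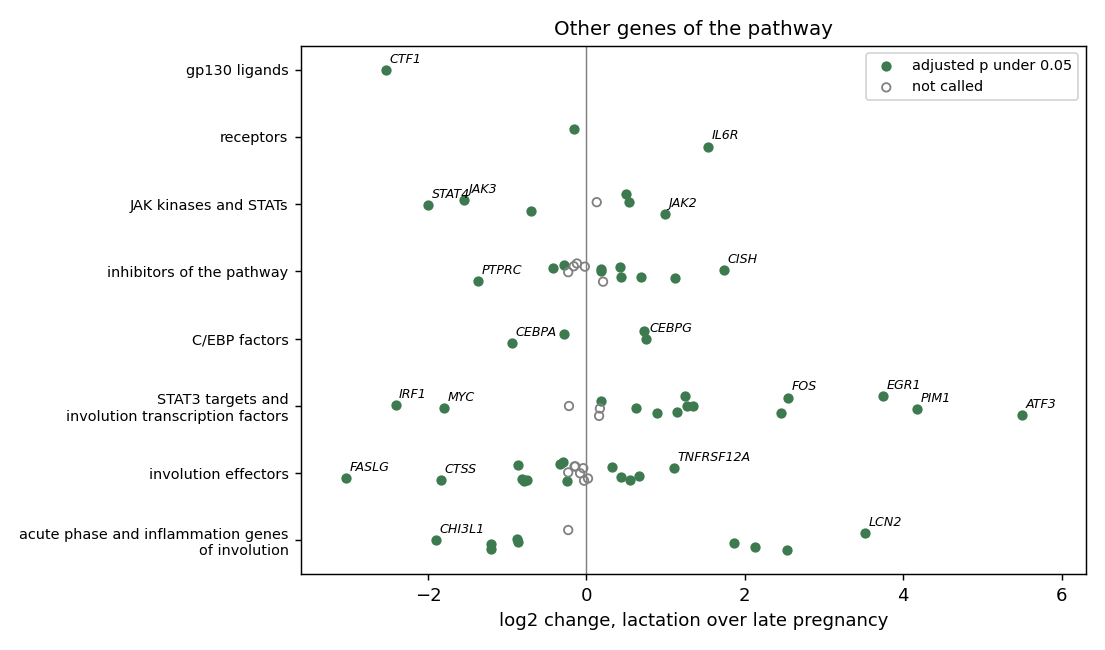
Log2 change from late pregnancy to lactation (horizontal axis) of the 77 other tested genes, 1 point per gene in rows by list, filled green where the adjusted p was under 0.05 and open where not. The row of STAT3 targets and involution transcription factors reaches from -2.41 (IRF1) to 5.50 (ATF3) with most points to the right. Most effectors lie at or left of 0.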

How the data were processed

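Reads of 15 libraries were mapped by the authors to the sheep genome in CLC Genomics Workbench (version not given in the sources used here). Per the labels the build was Oar_v3.1, while the study's methods name a later version, so coordinates are those of the deposited table. The deposited counts are whole numbers of reads on exons and on genes per feature, not normalized. The deposited RPKM were made by the authors from those reads per kilobase of exon and total gene reads, and a further column set holds them after quantile normalization. Deposited fold changes and p-values of the authors' own comparison were not used.

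Reads on exons (gene reads for the 5583 features without an annotated transcript) were analysed in R 4.3.3 with edgeR 4.0.16 (filterByExpr, TMM, quasi-likelihood F-test, no covariates), with DESeq2 1.42.0 and limma 3.58.1 as alternatives. In simulated data for this comparison over 13345 genes, 100 genes were changed 2-fold and 100 were changed 4-fold, evenly up and down. Of these, 87% of 2-fold and 99% of 4-fold changes were recovered. The simulation held no shift in the share of milk protein genes, so it does not bear on the scaling between states. Intron reads are gene reads less exon reads. Ratios and the exon to intron test used pseudocounts of 0.5 reads and 1 CPM. Python 3.11.15 with scipy 1.17.1 did the rest. The 95% intervals of changes include the spread between pools, whereas the floor of 3 reads covers counting error only, since reads carried no molecular identifiers.

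The genes and lists were chosen with earlier results of these data known. Named were all 9 genes, of each list the 3 called genes that rose most and the 3 that fell most, any gene needed for a count of 5 or fewer, and the 5 genes most like STAT3 or SOCS3 with a mean of at least 1 CPM. BCL3, FOS, IGFBP5, PIK3R1, CLCF1, IL27, FCGR3A, KRT7, S100A8 and S100A12 were named outside this rule after their values were seen. So were PIAS2, PTPN6, KRT18, KRT19, CDH1 and CLDN3. List genes with no row of that symbol were not analysed here. A further result of the kinase list is not reported here. Pool numbers of 6 late pregnancy and lactation pairs did not deviate together (correlations -0.0452 to 0.12, 3 over 0.1), so no block was used.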

Additional observations from a re-analysis of the deposited data

Results flagged for a closer look

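Of 16 sets of libraries (8 genes in 2 states), 1 held a library far from the others, and chance alone flags about 1 in 20 sets. CEBPD in HM lactation pool 2 was 16.5 CPM, while the other 5 lactation libraries held 23.3 to 28 CPM, and its gap was 0.65 of the whole range on the log2(CPM + 1) scale, above the critical value of 0.625. Without that library the log2 change of CEBPD was 0.41 (edgeR adjusted p = 0.0015).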

How the results depend on the processing

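DESeq2, uniquely placed reads, dam nutrition or lane as covariate left each of the 8 genes in the same direction and on the same side of the threshold, as did each fit without 1 library. With library size only, the values were STAT3 -1.93, IL6ST -2.02, LIFR 0.12, OSMR -1.49, JAK1 -0.72, SOCS3 -0.50, CEBPB -1.97 and CEBPD -1.58, with 0 of the 8 called higher and 6 lower. Of the other genes 6 were then called higher and 68 lower. By list (higher, lower), receptors were 0 and 2, kinases and STATs 0 and 7, inhibitors 0 and 15, C/EBP factors 0 and 4. STAT3 targets with transcription factors of involution were 5 and 12, effectors 0 and 21, and acute phase genes 1 higher. The all-gene median was then -1.94. Upper quartile scaling gave STAT3 -0.17, IL6ST -0.27, OSMR 0.26, CEBPB -0.21 and CEBPD 0.17, with 3 of the 8 higher and 3 lower, and 4 inhibitors higher and 6 lower. Library size without the 7 milk protein genes, added after the data were seen, gave STAT3 -0.23, IL6ST -0.33, OSMR 0.20, CEBPB -0.27 and CEBPD 0.11 (all-gene median -0.226), 3 higher and 3 lower, 4 inhibitors higher and 7 lower, 3 effectors higher and 0 ligands lower. Over all genes the split was 4419 higher and 4703 lower in the TMM fit, 3420 and 5990 with upper quartile scaling, 3041 and 6274 without the milk protein genes, and 352 and 12705 with library size only.

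Requiring 10 reads in every library dropped SOCS3 and gave STAT3 -0.11 (called) and CEBPD 0.24 (not called), 3 of the 8 higher and 1 lower, 4 inhibitors higher and 5 lower, and 0 ligands, 1 kinase or STAT and 2 acute phase genes lower; without a filter 1 ligand was called higher and 2 receptors lower. Reads on the whole gene gave STAT3 0.00 and IL6ST 0.03, with 3 acute phase genes lower. On quantile-normalized RPKM plus 1, limma gave STAT3 -0.22, CEBPB -0.31 and CEBPD 0.11, and plus 0.1 it gave -0.23, -0.31 and 0.11, with 2 of the 8 lower in both and 3 acute phase genes lower in the latter. Within lane 7, CEBPD was 0.20, and 16 other genes were lower, with 0 C/EBP factors and 2 effectors higher and 0 receptors, 3 effectors and 3 acute phase genes lower. Within lane 8, STAT3 was 0.03, OSMR 0.12 and CEBPB 0.05, with 0 receptors lower. DESeq2 called 0 receptors lower. The causes were not tested.

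The replicate block by dam group and pool number, for which the 3 unpaired late pregnancy pools were dropped, moved the 8 genes to between -0.12 (IL6ST) and 1.99 (LIFR) and changed none of their calls, with 0 receptors lower and 4 inhibitors higher; 1 of 6 pools was most like its own number. In the fits without 1 library, receptors called lower ranged from 0 to 1, acute phase genes called lower from 3 to 6, the intron change of IL6ST from 0.24 to 0.36 and that of OSMR from -0.11 to 0.03 (0.06 with exon scaling factors). The exon less intron change of OSMR was 0.37 without HM lactation pool 1. Promoter motifs were not run, since no sheep sequence of this build was used here. Low reads limit SOCS3 and LIF most: their levels rest on at most 26 and 3 reads per library.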
